A study of Mus musculus with 66 samples.

Results

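The miR-148 and miR-152 family was followed in mouse plasma through its 6 mature miRNAs, the 3p and 5p arms of the hairpins of Mir148a, Mir148b and Mir152. The members were taken by name and shared seed or hairpin, with no threshold on a value, though with earlier results for mmu-miR-148a-3p in these data known. All 6 were listed in the small RNA table of the C3H mice, which holds 1826 miRNAs, and all 6 in the table of the F2 mice, which holds 1885. No row of either table joined a member with another miRNA.

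A miRNA hairpin is cut by Drosha and Dicer into a short duplex, of which usually one arm is kept in an Argonaute protein and guides it to messenger RNAs, while the other arm is mostly lost. Targets are recognised chiefly by the seed, the bases near the 5′ end, so miRNAs with the same seed are grouped as a family. MiR-148a is abundant in the liver, and the family is known to repress the DNA methyltransferase Dnmt1. Plasma holds miRNAs released from many tissues in vesicles or bound to proteins, so a plasma count is a sum over sources.

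The sequences are shown because they define the family and because the 3p arms differ at few bases. The mature sequences from RefSeq (GRCm38.p6) are given 5′ to 3′, with the seed, bases 2 to 8, in capitals.
mmu-miR-148a-3p: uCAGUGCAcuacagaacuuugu
mmu-miR-148b-3p: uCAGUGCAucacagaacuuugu
mmu-miR-152-3p: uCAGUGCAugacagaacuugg
mmu-miR-148a-5p: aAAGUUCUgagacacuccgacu
mmu-miR-148b-5p: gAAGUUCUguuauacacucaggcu
mmu-miR-152-5p: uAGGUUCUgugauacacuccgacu

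Of 1679 mature mouse miRNAs in that reference, 3 carried the seed of the 3p arms, and these were the 3 members themselves. The 5p arms were less alike. The seed of mmu-miR-148a-5p was shared with mmu-miR-148b-5p alone, and that of mmu-miR-152-5p with no other miRNA. Counted from 1 at the 5′ end, mmu-miR-148a-3p and mmu-miR-148b-3p differed by C9U and U10C over 22 bases. Between mmu-miR-148a-3p and mmu-miR-152-3p the differences were C9U, U10G and U20G over the 21 bases compared.

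The hairpins are shown to place each pair of arms, with the mature 5p arm first and the 3p arm second in capitals.
Mir148a: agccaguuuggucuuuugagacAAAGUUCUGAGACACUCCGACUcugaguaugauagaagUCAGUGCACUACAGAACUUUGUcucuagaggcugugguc
Mir148b: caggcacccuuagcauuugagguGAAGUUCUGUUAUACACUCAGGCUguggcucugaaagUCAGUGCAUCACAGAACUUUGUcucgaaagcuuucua
Mir152: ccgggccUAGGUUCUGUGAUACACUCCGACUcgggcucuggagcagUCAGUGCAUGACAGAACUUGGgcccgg

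In GRCm38, Mir148a lies at chr6:51269812-51269910 on the minus strand and overlapped no other gene of the GENCODE M21 annotation. Mir148b lies at chr15:103285125-103285221 on the plus strand, in an intron of Copz1. Mir152 lies at chr11:96850393-96850465 on the plus strand, in an intron of Copz2. Copz1 and Copz2 encode paralogous zeta subunits of the coatomer, which coats vesicles of the secretory pathway, and both run on the same strand as their hairpin.

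The C3H table covered 13 male mice, 8 with hepatocellular carcinoma (HCC) and 5 without (non-HCC), all labelled as sampled more than 12 months after radiation, with blood drawn from the heart at necropsy. By the study's methods the HCC group joins tumors that arose spontaneously with radiation-induced ones, and the labels do not say which mouse had which. The F2 table covered 53 plasma libraries of 15 irradiated mice of both sexes that developed HCC, second-generation progeny of BALB/c females and C3H males, bled from the tail vein at 1, 6, 12 or 18 months past irradiation. The names of its columns match no label, so these libraries could be described but not put in order of time. The libraries carried unique molecular identifiers (UMIs), so copies of a molecule made by amplification were counted once.

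In the C3H mice, the HCC libraries held 9513136 to 14247488 miRNA UMIs and the non-HCC libraries 10467560 to 13962539. The mean count of the UniSP2 and UniSP4 spike-ins, added to each sample before RNA isolation and used as the library scale, ranged from 83039 to 469953 in HCC and from 182485 to 366298 in non-HCC mice. UniSP2 had 165794 to 938898 UMIs over the 13 mice and UniSP4 225 to 1008, so the mean was almost wholly set by UniSP2. Among the HCC libraries 3 pairs, 1 with 6, 2 with 5 and 3 with 7, were much alike, with a correlation over miRNAs of 0.981 to 0.995 against 0.883 to 0.945 for the other 25 HCC pairs. The 10 non-HCC pairs had 0.968 to 0.986. The counts differed by a chi-square per degree of freedom of 33.5 to 63.1 within the 3 similar pairs, 794 to 8690 within the other HCC pairs and 92.7 to 1071 within the non-HCC pairs. The labels name 8 HCC mice, and 8 were kept, but these values do not show whether the libraries of a similar pair came from separate animals. The main results are therefore also given with each pair summed into 1 library.

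The question was whether the higher plasma level of mmu-miR-148a-3p in HCC mice was shared by its other arm and by the other members of the seed family. Both arms of miR-148a were higher in HCC mice, mmu-miR-152-3p was higher with a call that depended on single mice, and neither arm of miR-148b was called. Over the 6 members, 3 passed the edgeR quasi-likelihood test at an adjusted p of 0.05, all higher in HCC, where 7.51% of the 1452 miRNAs tested were called higher (109 miRNAs). Of the 283 at an unadjusted p under 0.05, 3 were lower in HCC, and none was called lower by edgeR or limma and 2 by DESeq2 on the same scale. The median log2 fold change of the members was 2.22, against 0.78 over all miRNAs tested. TMM, a scale set from the bulk of the miRNAs, brought the median of all miRNAs to 0.17 and that of the members to 1.36. On that scale 3 members were called higher, where 7.37% of all miRNAs were called higher and 2.2% lower.

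Mmu-miR-148a-3p, the arm of Mir148a that is kept in most tissues, had 17301, 20766, 11629, 22904 and 24581 UMIs in the 5 non-HCC mice. In the 8 HCC mice its count ran from 32772 through a median of 143576 to 236314, so every HCC mouse exceeded every non-HCC mouse in UMIs. These counts are not scaled by library, and how many of all miRNAs separate so in UMIs was not counted. By median count it was the 54th most abundant miRNA of 1452 in non-HCC mice and the 13th in HCC mice.

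On the spike-in scale, where a level is the log2 of a count raised by 1 UMI and divided by the relative spike-in mean, mmu-miR-148a-3p stood at 16.89 ± 2.04 (SD, n = 8) in HCC and 13.90 ± 0.72 (SD, n = 5) in the non-HCC group. Of the 8 HCC mice, 6 exceeded the whole non-HCC range and the other 2, HCC 3 and HCC 7, fell within it (exact two-sided permutation p = 0.0140). No member had all 8 HCC mice above all non-HCC mice on this scale, where 1.52% of the miRNAs tested did. The edgeR log2 fold change, which follows mean counts and so the highest mice, was 3.80 ± 0.89 (SE), 14.0-fold, with an adjusted p of 0.0125. With the similar libraries summed it was 3.56 (adjusted p = 0.0127), where 6.92% of 1401 miRNAs were called higher. On the TMM scale it was 2.89 (adjusted p = 0.00485), and all 8 HCC mice exceeded the 5 non-HCC mice, as they did for 3.72% of the miRNAs tested. With limma on log2 levels the difference was 2.99 and missed the threshold (adjusted p = 0.0931).

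**Figure D1:**
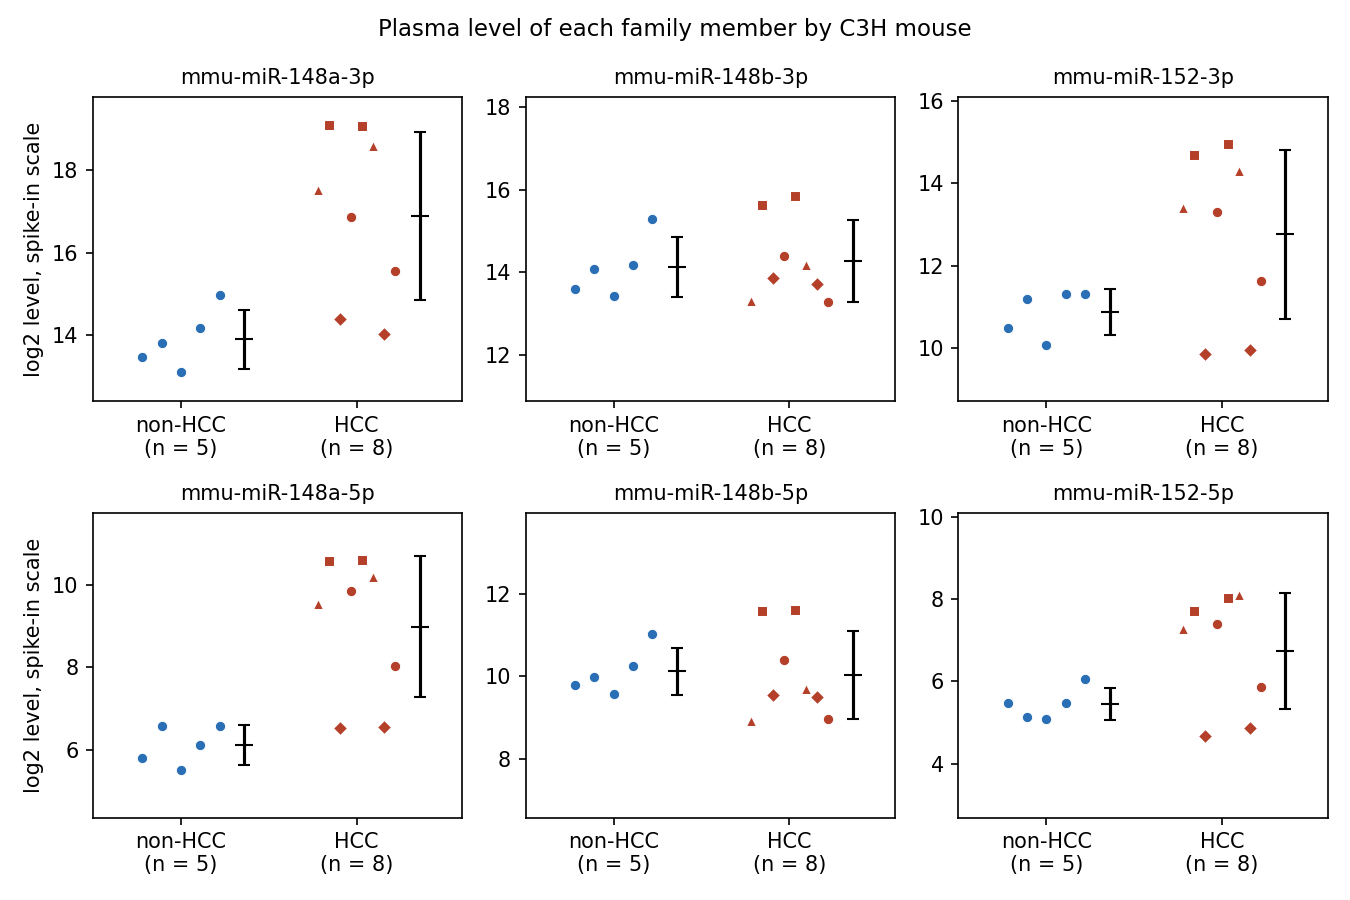
Log2 level of each member on the spike-in scale (y axis) in each C3H mouse, by group on the x axis, with the mean and SD as a bar beside each group. Triangles, squares and diamonds mark the 3 pairs of similar HCC libraries, and each panel spans the same range of log2 units. The HCC mice spread widely in both arms of miR-148a and of miR-152, with HCC 3 and HCC 7 (diamonds) lowest. The ranges of the groups overlap for every member, for both arms of miR-148a only through HCC 3 and HCC 7.

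Mmu-miR-148a-5p, the arm that is mostly discarded, was far scarcer and moved alike. It had 84, 137, 59, 86 and 72 UMIs in the non-HCC mice, and 169 to 855 in the HCC mice with a median of 548.5. As for the 3p arm, the unscaled counts of the groups did not overlap, a separation not counted over all miRNAs. On the spike-in scale 6 of the 8 HCC mice exceeded the non-HCC range, and HCC 3 and HCC 7 fell inside it.

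The level of mmu-miR-148a-5p was 8.98 ± 1.71 (SD, n = 8) in HCC and 6.12 ± 0.48 (SD, n = 5) in the non-HCC group (exact permutation p = 0.00777). The edgeR log2 fold change was 3.47 ± 0.78 (SE), with an adjusted p of 0.0116, and 3.37 with similar libraries summed (adjusted p = 0.0111). It was 2.60 on the TMM scale (adjusted p = 0.00178), where the groups again did not overlap, as for 3.72% of the miRNAs tested. Both arms of Mir148a were called in each of the 13 fits that left out 1 mouse. The limma difference of 2.87 for the 5p arm missed the threshold (adjusted p = 0.0631).

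The arm ratio of Mir148a gave a comparison within each mouse that needs no library scale. The log2 ratio of mmu-miR-148a-5p to mmu-miR-148a-3p averaged -7.91 ± 0.54 (SD, n = 8) in HCC and -7.79 ± 0.44 (SD, n = 5) in the non-HCC group, and the 2 ranges overlapped. The difference was -0.12, with a 95% interval from inverting the exact permutation test of -0.76 to 0.53 (p = 0.660, 0.660 adjusted over 6 ratios). Of the UMIs of both arms, the 5p arm made up 0.272% to 0.754% in the HCC group, against 0.292% to 0.655% without HCC. A change in the arm ratio was not detected, and the interval allows one of up to 0.76 on the log2 scale.

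Mmu-miR-148b-3p carries the same seed as mmu-miR-148a-3p. It was of like abundance in non-HCC mice, with 18935, 25110, 14653, 23015 and 30564 UMIs, and stood at 11016 to 27005, with a median of 17838.5, in HCC mice. The groups overlapped on either scale. Its rank by median count was 50 in non-HCC and 52 in HCC mice.

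The level of mmu-miR-148b-3p on the spike-in scale was 14.27 ± 0.99 (SD, n = 8) in HCC and 14.11 ± 0.73 (SD, n = 5) in the non-HCC group (exact permutation p = 0.746). The edgeR log2 fold change was 0.32 ± 0.60 (SE, adjusted p = 0.893) on the spike-in scale and -0.23 ± 0.30 (SE, adjusted p = 0.836) on the TMM scale, so its sign changed with the scale. Its other arm, mmu-miR-148b-5p, had 999 to 1598 UMIs in non-HCC and 496 to 1410 in HCC mice, with a log2 fold change of 0.18 ± 0.60 (SE, adjusted p = 0.953) that turned negative with TMM, at -0.45 (adjusted p = 0.434). Set against the median of all miRNAs, mmu-miR-148b-3p differed by -0.46 on the spike-in scale and -0.40 with TMM.

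Mmu-miR-152-3p, the scarcest of the 3p arms in non-HCC mice, had 2217, 3389, 1425, 3151 and 1950 UMIs there. In HCC mice it ran from 1696 through a median of 8854.5 to 12512. In UMIs, 6 HCC mice exceeded all non-HCC mice, whereas HCC 3 and HCC 7, with 1696 and 1947 UMIs, lay among the non-HCC counts and below all non-HCC mice on the spike-in scale.

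The level of mmu-miR-152-3p was 12.76 ± 2.05 (SD, n = 8) in HCC and 10.88 ± 0.56 (SD, n = 5) in the non-HCC group (exact permutation p = 0.0699). The edgeR log2 fold change was 2.72 ± 0.82 (SE), with an adjusted p of 0.0437, and 1.74 on the TMM scale (adjusted p = 0.0339). The call was lost when any 1 of the 5 non-HCC mice or any 1 of HCC 1, 2, 4, 5 and 6 was left out (adjusted p 0.0527 to 0.132), with limma (1.89, adjusted p = 0.327), and when similar libraries were summed (2.53, adjusted p = 0.0512). In these 10 fits without 1 mouse its value ran from 2.39 to 2.82.

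Mmu-miR-152-5p was the scarcest member, with 67, 50, 44, 54 and 50 UMIs in non-HCC mice and 46 to 177, with a median of 86, in HCC mice. Its log2 fold change of 1.73 ± 0.66 (SE) did not pass (adjusted p = 0.124), nor did 0.97 on the TMM scale (adjusted p = 0.0866). It passed without HCC 3 (1.89, adjusted p = 0.0467) and with DESeq2 on spike-in size factors (1.73, adjusted p = 0.0353). The arm ratio of Mir152, 5p to 3p, was -6.02 ± 0.70 (SD, n = 8) in HCC and -5.43 ± 0.49 (SD, n = 5) in the non-HCC group, and the difference of -0.59 did not pass (exact permutation p = 0.139, 0.167 adjusted over 6 ratios).

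**Figure D2:**
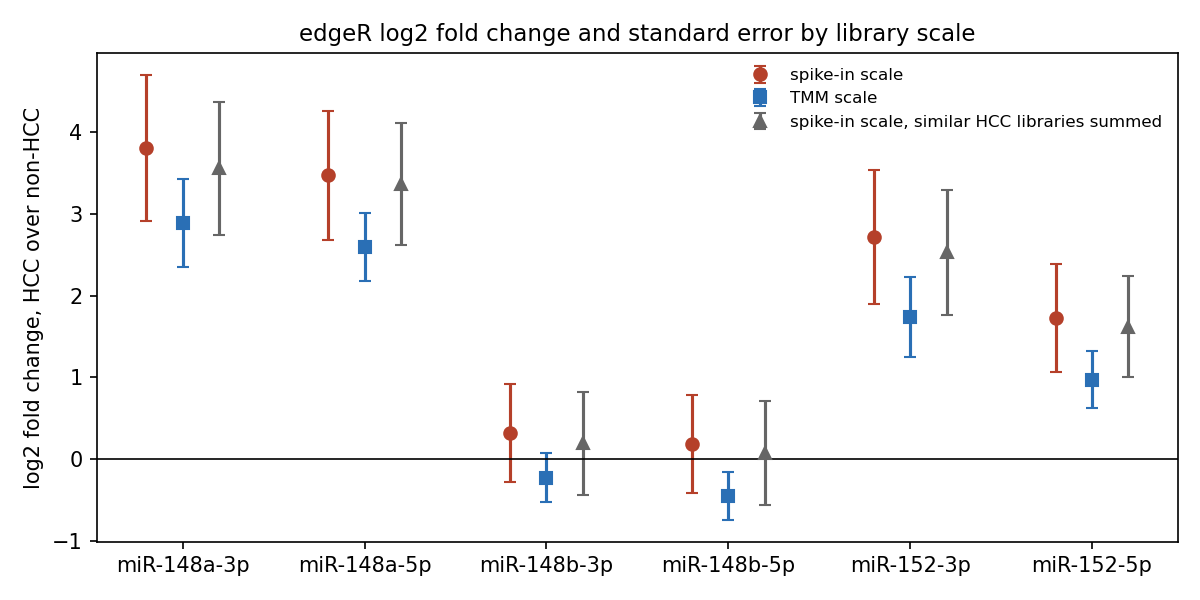
EdgeR log2 fold change of HCC over non-HCC mice (y axis) with its standard error for each member (x axis), on the spike-in scale, on the TMM scale, and on the spike-in scale with similar HCC libraries summed. Both arms of miR-148a lie highest under each setting, at 2.60 or more, and both arms of miR-148b lie near 0, above it on the spike-in scale and below it on the TMM scale.

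Whether the seed family moved together was tested on the ratios of the 3p arms within each mouse. The log2 ratio of mmu-miR-148b-3p to mmu-miR-148a-3p lay between 0.01 and 0.33 in the non-HCC mice and between -4.42 and -0.32 in the HCC mice, so all 8 HCC mice lay below all 5 non-HCC mice. The mean fell by 2.83, with a 95% interval of -4.33 to -1.27 (exact permutation p = 0.00389, 0.0117 adjusted over 6 ratios). With similar libraries summed the exact permutation p was 0.00794, the smallest that 5 against 5 libraries allow, and 0.0476 adjusted over 6 ratios. Such a separation against mmu-miR-148a-3p was common, since 33% of the 1451 other miRNAs tested had a lower ratio to it in every HCC mouse than in any non-HCC mouse. HCC 3 and HCC 7, whose mmu-miR-148a-3p levels lay in the non-HCC range, were the nearest to the non-HCC mice here and still on the other side of them.

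The log2 ratio of mmu-miR-152-3p to mmu-miR-148a-3p averaged -4.13 ± 0.30 (SD, n = 8) in HCC and -3.02 ± 0.39 (SD, n = 5) in the non-HCC group. The difference of -1.11, with a 95% interval of -1.51 to -0.69, passed (exact permutation p = 0.00155, 0.00932 adjusted over 6 ratios), and 7 of 8 HCC mice lay below all non-HCC mice. With similar libraries summed the difference also passed, at an exact permutation p of 0.0159, 0.0476 adjusted over 6 ratios. The log2 fold change of mmu-miR-148a-3p on the spike-in scale ranked 68th of 1452, above that of most miRNAs. How many other miRNAs fell against it by as much was not counted. This ratio shows mmu-miR-152-3p lower against mmu-miR-148a-3p in HCC mice, not that mmu-miR-152-3p itself was higher. The level of mmu-miR-152-3p alone did not pass (exact permutation p = 0.0699). Against mmu-miR-148b-3p, the ratio of mmu-miR-152-3p was higher by 1.73 in HCC, with a 95% interval of 0.07 to 3.29, which did not pass after adjustment over 6 ratios (exact permutation p = 0.0412, adjusted 0.0618). In this ratio HCC 7 lay within the non-HCC range and HCC 3, at -3.99, just below its lowest value of -3.97. Without HCC 3 or without HCC 7 the adjusted p was 0.0227 and 0.0253.

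The arm ratio of Mir148b, 5p to 3p, differed slightly. It was -4.25 ± 0.16 (SD, n = 8) in HCC and -3.99 ± 0.18 (SD, n = 5) in the non-HCC group, a difference of -0.25 that did not pass after adjustment (exact permutation p = 0.0256, 0.0513 adjusted over 6 ratios). It passed without HCC 2 (adjusted p = 0.0455), without HCC 4 (0.0328) and without non-HCC 5 (0.0202).

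**Figure D3:**
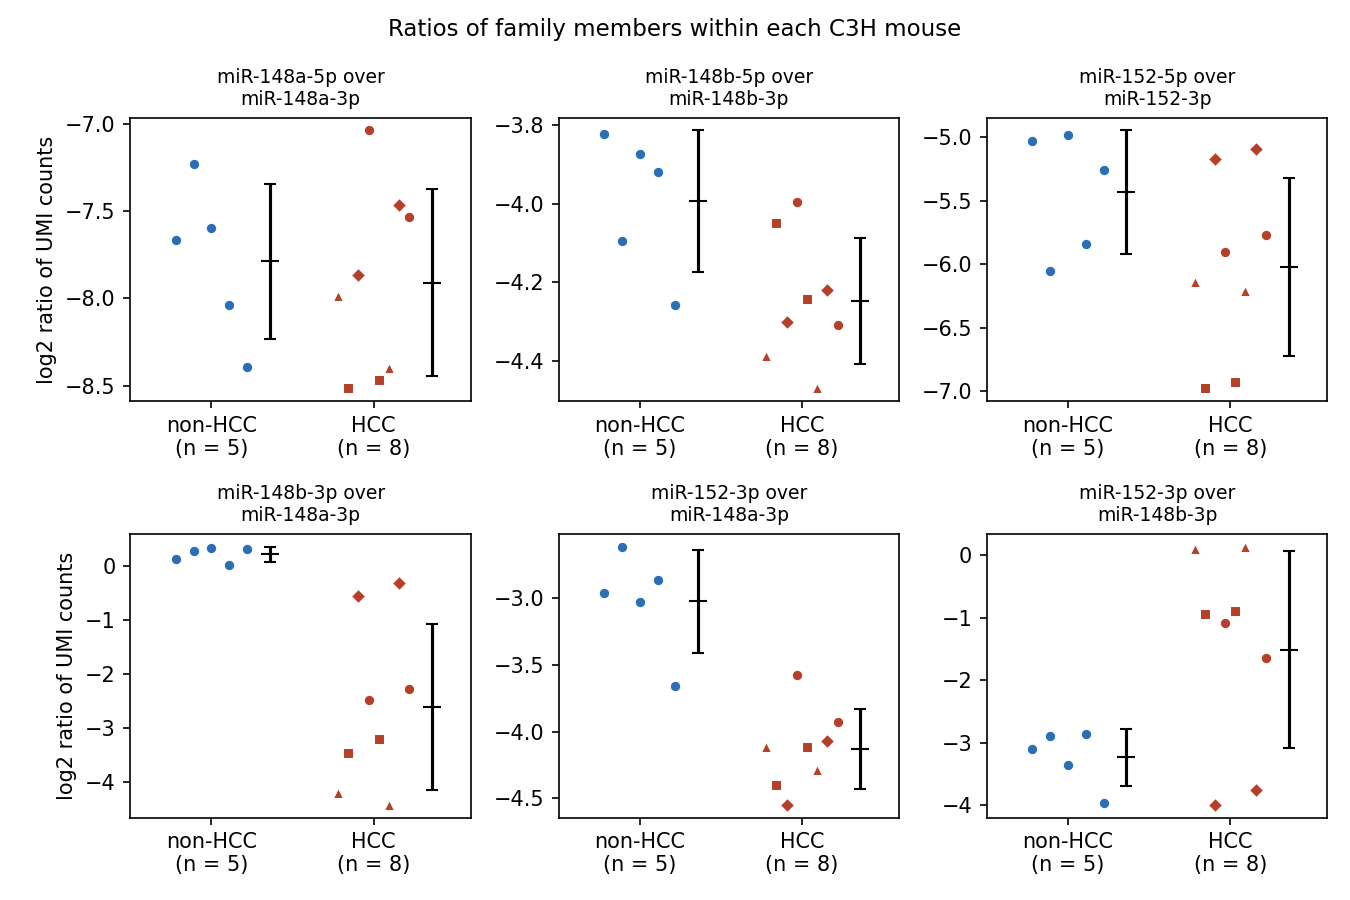
Log2 ratio of UMI counts of the named pair (y axis) within each C3H mouse, by group on the x axis, with the mean and SD beside each group and the similar HCC libraries marked by shape. Each panel has its own range. The ratio of miR-148b-3p to miR-148a-3p separates the groups completely, from -0.32 down in HCC and from 0.01 up in non-HCC mice, whereas the 5p to 3p ratio of miR-148a overlaps. Ratios to miR-148a-3p separated the groups in this way for 33% of the 1451 other miRNAs tested.

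As a share of the 3p UMIs of the family, mmu-miR-148a-3p took 44.99%, 42.15%, 41.97%, 46.68% and 43.05% in the 5 non-HCC mice. In the 8 HCC mice it took 53.7% to 91.1%, with a median of 82.5%. The groups did not overlap, and counting error was small beside the gap, since the widest 95% Wilson interval of its share spanned 1.16 percentage points. That interval does not cover the spread between mice. With mmu-miR-152-3p a small part, the share largely restates the ratio of mmu-miR-148b-3p to mmu-miR-148a-3p. In the ratio to mmu-miR-148a-3p, 33% of the 1451 other miRNAs tested separated the groups in this way. The share of mmu-miR-148b-3p was 46.9% to 53.5% in non-HCC and 4.25% to 43.1% in HCC mice, and that of mmu-miR-152-3p overlapped, at 3.42% to 6.88% and 2.48% to 6.63%. These are shares of UMIs, and the efficiency with which each sequence enters a library was not measured.

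**Figure D4:**
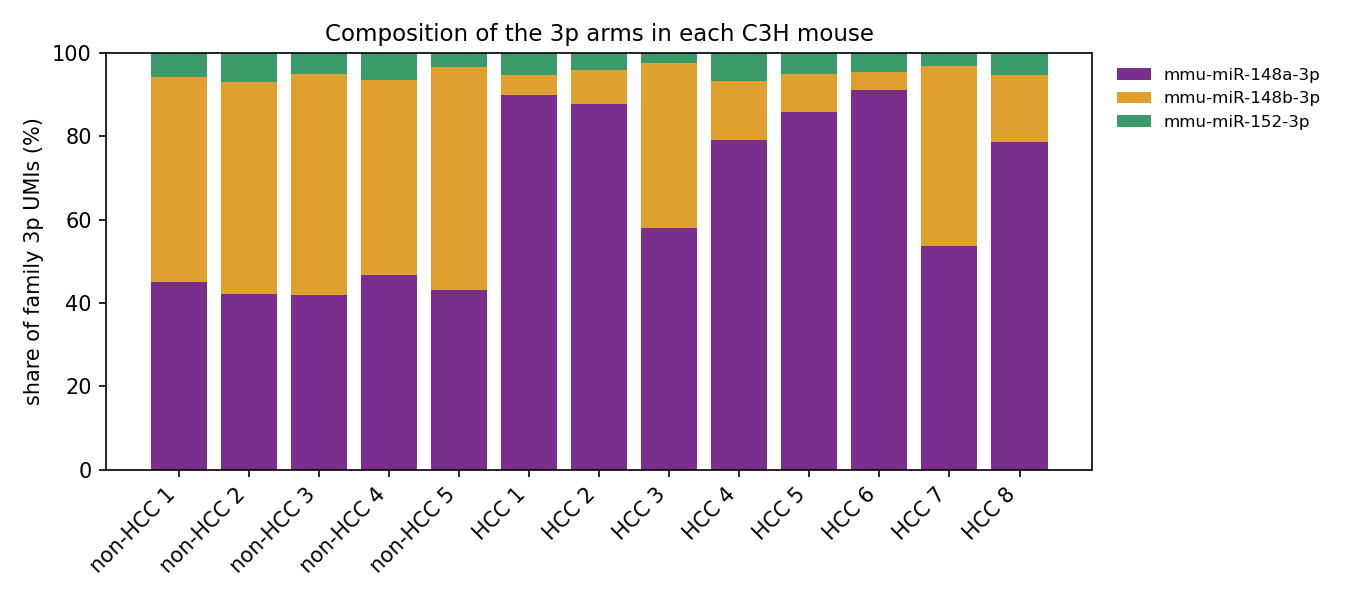
Share of the family's 3p UMIs (y axis, percent) taken by mmu-miR-148a-3p, mmu-miR-148b-3p and mmu-miR-152-3p in each C3H mouse (x axis). In the 5 non-HCC mice mmu-miR-148b-3p takes 46.9% to 53.5%, more than mmu-miR-148a-3p in each, and in the 8 HCC mice mmu-miR-148a-3p takes 53.7% or more.

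Because the 3p arms of miR-148a and miR-148b differ only at bases 9 and 10, some reads of one could be counted under the other, and how mismatched reads were assigned is not given in the sources used here. In HCC 6, the mouse with most mmu-miR-148a-3p, the count of mmu-miR-148b-3p came to 4.66% of it, against 100.5% to 126.0% in the non-HCC mice. In the mice where mmu-miR-148a-3p was highest in UMIs, HCC 6 and HCC 1, mmu-miR-148b-3p was lowest, with 11016 and 11697 UMIs. The order depended on the scale. On the spike-in scale HCC 2 and HCC 5 were highest in mmu-miR-148a-3p (19.09 and 19.07) and also in mmu-miR-148b-3p (15.63 and 15.86). Counting of one arm under the other was not tested.

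Arms were paired by name, so hairpins whose arms carry different copy numbers or joined names were left out. Among the 441 hairpins so paired with both arms tested, both arms were called in 11. Only the 5p arm was called in 18, only the 3p arm in 24, and neither in 388. Mir148a was among the 11. The log2 fold changes of its arms differed by 0.34 in size, which 99 of the 441 hairpins undercut, and the median size over all was 0.82. For Mir148b the difference was 0.14 in size and for Mir152 0.99.

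The spread of the members among the HCC mice was set beside mmu-miR-122-5p, the main miRNA of hepatocytes, which made up 2.20% to 42.7% of miRNA UMIs in HCC and 0.180% to 0.424% in non-HCC mice. Over the 8 HCC mice on the spike-in scale, mmu-miR-148a-3p followed it with Pearson r = 0.981 and Spearman rho = 0.952 (exact permutation p = 9.92e-05 and 0.00114, adjusted p of r 0.000298 over 6 relations). The values for mmu-miR-152-3p were r = 0.982 and rho = 1 (exact permutation p = 2.48e-05 and 4.96e-05, adjusted p of r 0.000149). For mmu-miR-148b-3p they were r = 0.607 and rho = 0.667 (exact permutation p = 0.104 and 0.0831, adjusted p of r 0.124).

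Both levels of such a pair share the spike-in scale. The p-values take the 8 HCC libraries as separate mice, and no correlation was computed over the 5 that remain with the similar libraries summed. Without HCC 3 and HCC 7, the mice farthest from the median of mmu-miR-122-5p, r was 0.974 for mmu-miR-148a-3p, 0.928 for mmu-miR-152-3p and 0.757 for mmu-miR-148b-3p. On the TMM scale over all 8 mice r was 0.959, 0.969 and -0.53 in the same order, so the sign for mmu-miR-148b-3p changed with the scale. Without HCC 3 and HCC 7 the TMM values were 0.951, 0.874 and 0.415, so that negative sign rested on these 2 similar libraries. The 5p arms had r of 0.965 (mmu-miR-148a-5p, adjusted exact permutation p = 0.000843), 0.560 (mmu-miR-148b-5p, 0.142) and 0.954 (mmu-miR-152-5p, 0.000930) on the spike-in scale, and 0.917, -0.53 and 0.782 on the TMM scale, where leaving out HCC 3 and HCC 7 gave 0.643, 0.174 and 0.465. On the spike-in scale without those mice they were 0.843, 0.680 and 0.803.

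The miRNAs outside the family whose levels were most like mmu-miR-148a-3p over the 8 HCC mice were mmu-miR-3967 (r = 0.995), mmu-miR-7219-3p (0.993), mmu-miR-5114 (0.993), mmu-miR-194-5p (0.992) and mmu-miR-21b (0.992) on the spike-in scale. On the TMM scale their r was 0.982, 0.972, 0.948, 0.977 and 0.985. The median r over the 1446 tested miRNAs outside the family was 0.579 on the spike-in scale and -0.14 with TMM. Of the 5, mmu-miR-194-5p, a miRNA of liver and gut, was called higher in HCC (log2 fold change 3.87, adjusted p = 0.0125), and the other four were not. Within the family, r with mmu-miR-148a-3p was 0.989 for mmu-miR-152-3p and 0.687 for mmu-miR-148b-3p on the spike-in scale, and 0.969 and -0.43 with TMM.

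A list of 7 liver miRNAs was chosen with earlier results of these data known. Of these, 6 were called higher in HCC, where 7.51% of all miRNAs tested were. Log2 fold changes over the list ran from 2.21 to 7.34, the latter for mmu-miR-122-5p (adjusted edgeR p = 0.00303). The log2 of the list's summed counts on the spike-in scale, in which abundant miRNAs weigh most, was 17.85 to 23.79 in HCC and 16.10 to 17.54 in non-HCC mice. None of 6 red cell, 5 platelet and leukocyte or 5 muscle miRNAs was called by edgeR on the spike-in scale, with 0, 1 and 1 of them at an unadjusted p under 0.05, and none was at 0 in all mice. The log2 of their summed counts on that scale in HCC and non-HCC mice was 19.38 to 22.95 and 21.40 to 22.71 for red cells, 16.41 to 19.01 and 17.65 to 19.78 for platelets and leukocytes, and 11.85 to 17.83 and 13.64 to 15.11 for muscle. On the TMM scale 4 of the 5 platelet and leukocyte miRNAs were called lower in HCC, where 2.2% of all miRNAs tested were. There 4 of the 6 red cell miRNAs had an unadjusted p under 0.05 without being called. The part of these lists in the members' levels was not tested, and in plasma more release per cell cannot be told apart from more cells that release.

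In the F2 libraries the family was made up mostly of mmu-miR-148a-3p. By the labels all were drawn before a tumor was detected, from mice that later developed HCC. No F2 libraries of mice without HCC are listed, so a link of this make-up to HCC was not tested. Each library held 205194 to 3020311 miRNA UMIs. Mmu-miR-148a-3p had 1170 to 18985 UMIs with a median of 4483, that is 3086 to 24071 counts per 1000000 miRNA UMIs (CPM) with a median of 5640, and ranked 25th of 1885 by median count. Its highest library stood 7.80-fold above its lowest in CPM.

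Mmu-miR-148b-3p ranged less, from 403 to 879 CPM with a median of 618, a 2.18-fold spread. Mmu-miR-152-3p ran from 112 to 767 CPM, a 6.85-fold spread, with a median of 293. In these libraries mmu-miR-148a-3p took 78.8% to 95.5% of the 3p UMIs of the family with a median of 86.2%, mmu-miR-148b-3p 2.75% to 14.6% and mmu-miR-152-3p 1.74% to 9.88%. For comparison by value alone, mmu-miR-148a-3p stood at 1111 to 1761 CPM in the non-HCC C3H mice and 2771 to 24273 in the HCC C3H mice. The F2 libraries differ from those in strain, site of blood collection, depth and time, so no test was made.

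The 5p arms were near the limit of detection in the F2 libraries, where no value between 0 and 10 UMIs is listed. Mmu-miR-148a-5p was listed at 0 in 1 and mmu-miR-152-5p in 3 of the 53 libraries, with medians of 27 and 24 UMIs, while mmu-miR-148b-5p ran from 17 to 212 UMIs. The log2 ratio of mmu-miR-148a-5p to mmu-miR-148a-3p had a median of -7.55, within the range of the C3H mice (-8.52 to -7.04). Its own range, -12.05 to -5.12, was wider than theirs, with the lowest value from the library listed at 0 UMIs. The ratio of mmu-miR-148b-5p to mmu-miR-148b-3p had a median of -2.53 and a range of -3.62 to -1.38, above every C3H mouse (-4.47 to -3.82).

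Across the 53 libraries, mmu-miR-152-3p followed mmu-miR-148a-3p with a Spearman rho of 0.644 in CPM, and mmu-miR-148b-3p with 0.391. On the spike-in scale these were 0.879 and 0.850, where both values of a pair share the scale and libraries of 1 mouse are not independent. The other arm, mmu-miR-148a-5p, with a median of 27 UMIs, followed mmu-miR-148a-3p less closely, with a rho of 0.210 in CPM and 0.524 on the spike-in scale. The rho of mmu-miR-148a-3p with mmu-miR-122-5p was 0.381 in CPM and 0.753 on the spike-in scale. The interquartile range of log2 mmu-miR-148a-3p was 0.52 in CPM and 1.41 on the spike-in scale, so the spread depended on the scale.

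**Figure D5:**
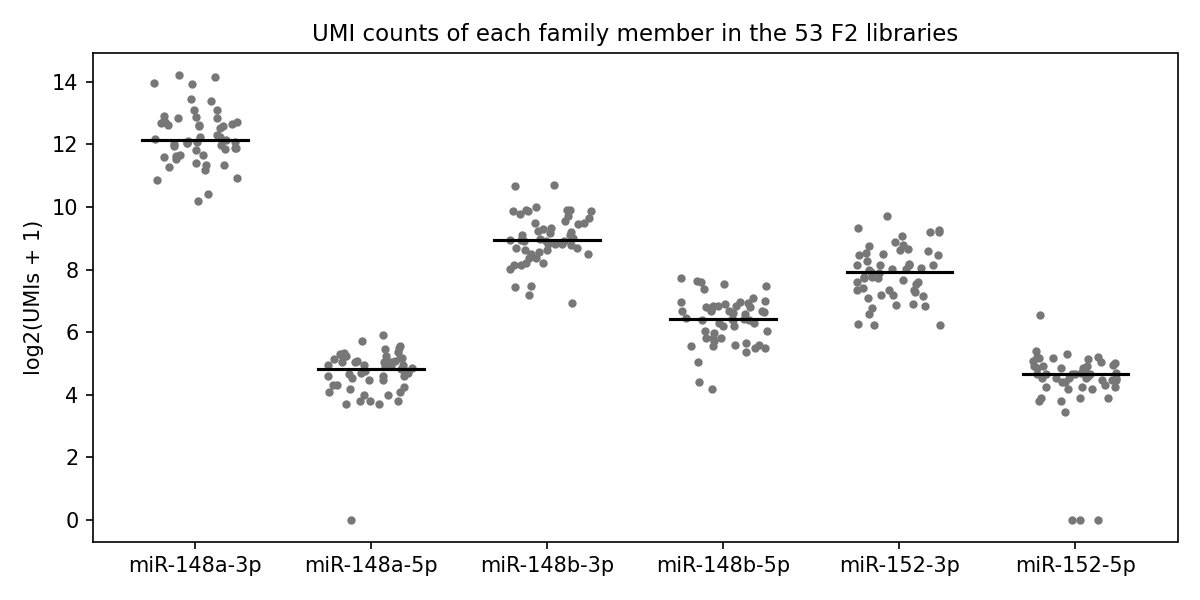
Log2 of the UMI count plus 1 (y axis) of each member (x axis) in the 53 F2 libraries, 1 point per library, with the median as a line. Mmu-miR-148a-3p lies highest, with a median of 4483 UMIs, and the points at 0 are the 1 library for miR-148a-5p and the 3 for miR-152-5p that are listed at 0.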

How the data were processed

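Plasma small RNA was sequenced by the authors with molecular barcodes in 13 C3H mice and 53 F2 samples. The authors aligned reads to GRCm38, annotated miRNAs by miRBase and deposited UMI counts per miRNA, not normalized, with the counts of both spike-ins. The labels' processing notes name FastQC and Bowtie2, with no version. C3H columns were assigned to mice by mouse name, the F2 columns only to their group, and 0 columns were left out.

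From the counts, edgeR 4.0.16 (quasi-likelihood, spike-in mean as library scale, at least 5 UMIs in at least 5 mice, Benjamini-Hochberg over all 1452 miRNAs tested, threshold 0.05) compared the groups. The lowest value listed above 0 is 10, so the filter acts as a minimum of 10 UMIs. A standard error is the fold change over the square root of F. Single values and ratios of log2(count + 1) were compared by exact two-sided permutation over all 1287 assignments. Alternatives were TMM, each spike-in alone, limma 3.58.1, DESeq2 1.42.0 with either size factors, other filters, a replicate block, a pseudocount of 10 and each mouse left out. Summing similar libraries was chosen after seeing the data. The fit was tested on simulated data.

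The named miRNAs are the 6 members, the 5 tested miRNAs outside the family with the highest r with mmu-miR-148a-3p over the HCC mice, and the lists of liver (mmu-miR-122-5p, mmu-miR-122-3p, mmu-miR-192-5p, mmu-miR-194-5p, mmu-miR-101b-3p, mmu-miR-802-5p, mmu-miR-802-3p), red cell (mmu-miR-451a, mmu-miR-144-3p, mmu-miR-144-5p, mmu-miR-486a-5p, mmu-miR-16-5p, mmu-miR-363-3p), platelet and leukocyte (mmu-miR-223-3p, mmu-miR-142a-3p, mmu-miR-142a-5p, mmu-miR-150-5p, mmu-miR-126a-3p) and muscle miRNAs (mmu-miR-1a-3p, mmu-miR-133a-3p, mmu-miR-206-3p, mmu-miR-208b-3p, mmu-miR-499-5p). Members and lists were chosen with earlier results of these data known. Intervals of shares cover counting error only. By the labels each C3H library is 1 mouse, and p-values measure the spread between these, while the 53 F2 libraries came from 15 mice and were not tested.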

Additional observations from a re-analysis of the deposited data

How the results depend on the processing

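Under 24 alternatives for each fold change, mmu-miR-148a-3p and mmu-miR-148a-5p kept their direction and call in 23, and limma lost the call, with 2.99 and 2.87. The fit on UniSP2 alone is among them and could hardly differ, since UniSP2 almost wholly sets the spike-in mean. For mmu-miR-152-3p the call was kept in 12 and lost in 12, with limma (1.89), with similar libraries summed (2.53, chosen after seeing the data) and in 10 of 13 fits that left out 1 mouse (range over all 13, 2.39 to 2.90). Mmu-miR-152-5p gained a call with DESeq2 on its own (1.02) or spike-in (1.73) size factors and without HCC 3 (range without 1 mouse 1.53 to 1.91). The direction of the uncalled fold changes of miR-148b turned. For mmu-miR-148b-3p it was -0.23 with TMM, -0.18 with DESeq2's own size factors and -0.23 with summed libraries and TMM, and -0.0014 to 0.74 without 1 mouse. For mmu-miR-148b-5p it was -0.45, -0.40 and -0.44 in the same order, -0.095 with limma and -0.12 to 0.49 without 1 mouse. In levels, mmu-miR-148b-3p differed by -0.30 on the TMM scale, and the correlations of mmu-miR-148b-3p and mmu-miR-148b-5p with mmu-miR-122-5p were -0.532 and -0.534 there, but 0.415 and 0.174 without HCC 3 and HCC 7.

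Of the ratios, miR-148b-3p to miR-148a-3p and miR-152-3p to miR-148a-3p kept their call in all 16 alternatives, with adjusted exact permutation p of up to 0.0476. Setting an entry of 0 to 9 UMIs, which is among them, could not change a ratio, as no member had an entry of 0 in the C3H mice. The uncalled arm ratio of miR-148a turned to 0.0012 with summed libraries and ranged from -0.27 to 0.016 without 1 mouse, that of miR-148b from -0.32 to -0.21, and miR-152-3p to miR-148b-3p from 1.49 to 2.08. The number of miRNAs called was 109, 44 with limma, 217 and 181 with DESeq2 on its own and spike-in size factors, and 44 (without non-HCC 1) to 157 (without HCC 3) without 1 mouse. The causes of these changes were not tested.

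A pairing of mice by replicate number is not stated. The deviations of same-numbered mice from their group mean correlated at -0.13 to 0.07, which cannot show that a pairing is absent. A fit with the number as a block gave 3.53 for mmu-miR-148a-3p, 3.39 for mmu-miR-148a-5p, 0.49 and 0.29 for mmu-miR-148b-3p and mmu-miR-148b-5p, 2.46 for mmu-miR-152-3p and 1.63 for mmu-miR-152-5p, with 145 miRNAs called and no call of a member changed. Depth limits the 5p arms of miR-148a and miR-152, with under 100 UMIs in most non-HCC mice, and in the F2 libraries, where values below 10 UMIs are not listed.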
